A study of Mus musculus with 53 samples.

Results

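Claudins are the membrane proteins that decide what passes between the cells of an epithelium, and 9 of them were followed here through a set of mouse intestinal RNA libraries: Cldn1, Cldn2, Cldn3, Cldn4, Cldn7, Cldn8, Cldn12, Cldn15 and Cldn23. They were chosen by symbol, each from its Ensembl identifier, and make up 9 of the 55421 genes counted in 53 libraries. All 9 passed the filter on low counts in every comparison. The libraries fall into 11 groups of tamoxifen-induced mice carrying VilCreER, a recombinase active in intestinal epithelium only, and RNA was taken from whole tissue. Proximal colon 30 days after induction (d30) came from 4 WT mice (VilCreER with no floxed allele), 4 A mice (Alk5fl/fl, in which the TGFβ receptor gene Tgfbr1 is deleted), 4 A mice given sulindac at 0.4 g/L in drinking water for 14 days, 5 BA mice (BrafV600E/+ Alk5fl/fl) and 5 BA mice given ampicillin, neomycin and metronidazole at 1 g/L each with vancomycin at 500 mg/L in drinking water from day 1 after tamoxifen. Tumours of 4 BA mice were set against the proximal colon of 3 WT mice. Small intestine came from 10 Apcfl/fl (labelled APCfl/fl) and 6 WT mice at day 4 (d4), and 5 small intestinal tumours of Apcfl/+ mice were set against the small intestine of 3 WT mice. The Apcfl/+ tumours and their WT mice were labelled Inbred C57BL6/J and all other groups Mixed C57BL/6J N6, and males and females were used.

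Tight junctions seal the space between neighbouring epithelial cells near their apical face. Claudins form the strands of these junctions, span the membrane several times and pair with claudins of the next cell through their extracellular loops. Cldn1, Cldn3, Cldn4 and Cldn8 are known mainly as sealing claudins, which tighten the barrier. Cldn2 and Cldn15 form channels for small cations and water, and sodium that returns to the lumen through them is used for nutrient uptake in the small intestine. Cldn7 lies along the lateral membrane as well as in the junction, and the roles of Cldn12 and Cldn23 are less settled. Scaffold proteins such as ZO-1 (Tjp1) tie the strands to the actin belt.

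The genes are spread over the GRCm38 genome, and 5 of the 9 have several exon blocks. Cldn3 (chr5:134986214-134987472, plus strand) and Cldn4 (chr5:134945119-134946934, minus strand) are single-exon neighbours, and 40 bases of Cldn3 overlap an exon of Wbscr25 on the other strand, which an unstranded kit cannot separate. Cldn12 (chr5:5489537-5514958, minus strand) and Cldn15 (chr5:136966616-136975858, plus strand) lie on the same chromosome. Cldn1 (chr16:26356642-26371841) and the single-exon Cldn8 (chr16:88560828-88563183) are both on the minus strand of chromosome 16. Cldn2 lies at chrX:139800828-139811386 on the plus strand, Cldn7 at chr11:69964779-69967885 on the plus strand and the single-exon Cldn23 at chr8:35824712-35826559 on the minus strand. Apart from Cldn3, no claudin of the set shared 36-base words or exons with another gene.

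The promoters of Cldn2, Cldn15 and Cldn4 are shown because the results below turn on these genes. Each is the 250 bases before the RefSeq start on GRCm38.p6, written 5′ to 3′ on the strand of the gene. The Cldn2 window is chrX:139800558-139800807 (plus strand), the Cldn4 window chr5:134946935-134947184 (minus strand) and the Cldn15 window chr5:136967619-136967868 (plus strand). As positioned above, the Cldn15 gene starts at chr5:136966616, so its window lies within the gene and is upstream of the RefSeq start only. Capitals mark the AP-1 letters TGANTCA, the CDX letters TTTATG and the TATA letters TATAAA on either strand.
Cldn2: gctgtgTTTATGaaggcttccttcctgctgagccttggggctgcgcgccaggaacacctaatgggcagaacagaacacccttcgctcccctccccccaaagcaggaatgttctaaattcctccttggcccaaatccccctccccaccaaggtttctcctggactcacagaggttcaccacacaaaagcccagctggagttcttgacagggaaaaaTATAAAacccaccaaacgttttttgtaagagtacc
Cldn4: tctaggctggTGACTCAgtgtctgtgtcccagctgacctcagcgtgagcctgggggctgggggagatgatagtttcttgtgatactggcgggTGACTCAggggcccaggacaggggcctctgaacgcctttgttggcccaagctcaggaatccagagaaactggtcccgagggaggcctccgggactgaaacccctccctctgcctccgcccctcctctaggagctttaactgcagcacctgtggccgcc
Cldn15: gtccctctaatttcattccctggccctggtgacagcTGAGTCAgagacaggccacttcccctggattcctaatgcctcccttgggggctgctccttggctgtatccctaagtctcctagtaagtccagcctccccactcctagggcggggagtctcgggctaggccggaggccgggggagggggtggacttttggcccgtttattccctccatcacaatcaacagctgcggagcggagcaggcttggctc

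The Cldn4 window held the AP-1 letters at 2 places, 240 to 234 and 158 to 152 bases before the start, and the Cldn15 window held them once, 214 to 208 bases before it. The Cldn2 window held the CDX letters 244 to 239 bases and the TATA letters 35 to 30 bases before the start. RefSeq promoters were at hand for 7 of the 9 claudins, and no other of these 7 held AP-1, CDX or TATA letters. The letters CTTTGA of TCF/LEF factors were in none of them. Over 32851 promoters of the same length, AP-1 letters were in 6.75%, CDX letters in 10.8%, TATA letters in 12.4% and TCF/LEF letters in 13.8%. These are matches of letters and say nothing of binding.

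Reads counted on genes ran from 516985 in Apcfl/fl replicate 1 to 32824795 per library, with a median of 18356939, and the second smallest total was 10005066. Levels are CPM (counts scaled to the library total) after TMM scaling, and levels of different genes are compared per kb of exon. Counts of the targeted genes, Tgfbr1 and Apc (deleted) and Braf (activated), checked no label. Tgfbr1 had log2 fold changes of 0.02 in d30 BA and -0.20 in A tissue. Braf had -0.04 in d30 BA tissue and Apc 0.37 in Apcfl/fl mice, and none of these was called. Reads were counted per gene and not per exon, and in whole tissue. Tgfbr1 rose in BA tumours, by 1.22 on the log2 scale, and Apc fell by 0.34 in Apcfl/+ tumours. Reads of Gm13394, a copy of Gapdh, were over 10 CPM in every A and BA library at d30 and in no WT library there, in every WT library and no tumour of the Apcfl/+ comparison, in BA tumours 1, 3 and 4 but none of the WT colon libraries they were compared with, and in some libraries of both groups at d4. Over 10 CPM of the Y-linked gene Ddx3y were found in all d30 libraries, in BA tumours 2 to 4 but no WT library they were compared with, and in Apcfl/+ tumour 1 alone beside all 3 of its WT libraries.

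In WT tissue the claudin make-up differed between colon and small intestine. In WT d30 colon Cldn7 and Cldn3 led at 398 and 345 CPM per kb with overlapping ranges, followed without overlap by Cldn15 at 92.6 and Cldn4 at 87.5, which overlapped each other. Cldn23 at 42.7, Cldn2 at 20.2, Cldn12 at 13.2 and Cldn8 at 6.62 CPM per kb came next, and Cldn1 was lowest at 0.19. In WT d4 small intestine Cldn15 stood among the leaders, at 357 CPM per kb between Cldn7 at 412 and Cldn3 at 227, with overlapping neighbours, and Cldn8 was near the bottom at 0.25. The pore-forming pair made up 11.2% ± 0.68 (SD, n = 4) of the summed CPM per kb of the 9 claudins in WT d30 colon, 35.3% ± 2.93 (SD, n = 6) in WT d4 small intestine and 41.5% ± 0.21 (SD, n = 3) in the WT small intestine set against Apcfl/+ tumours. Colon and small intestine came from different mice and differ in other ways, so these levels are given side by side with no test.

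**Figure D1:**
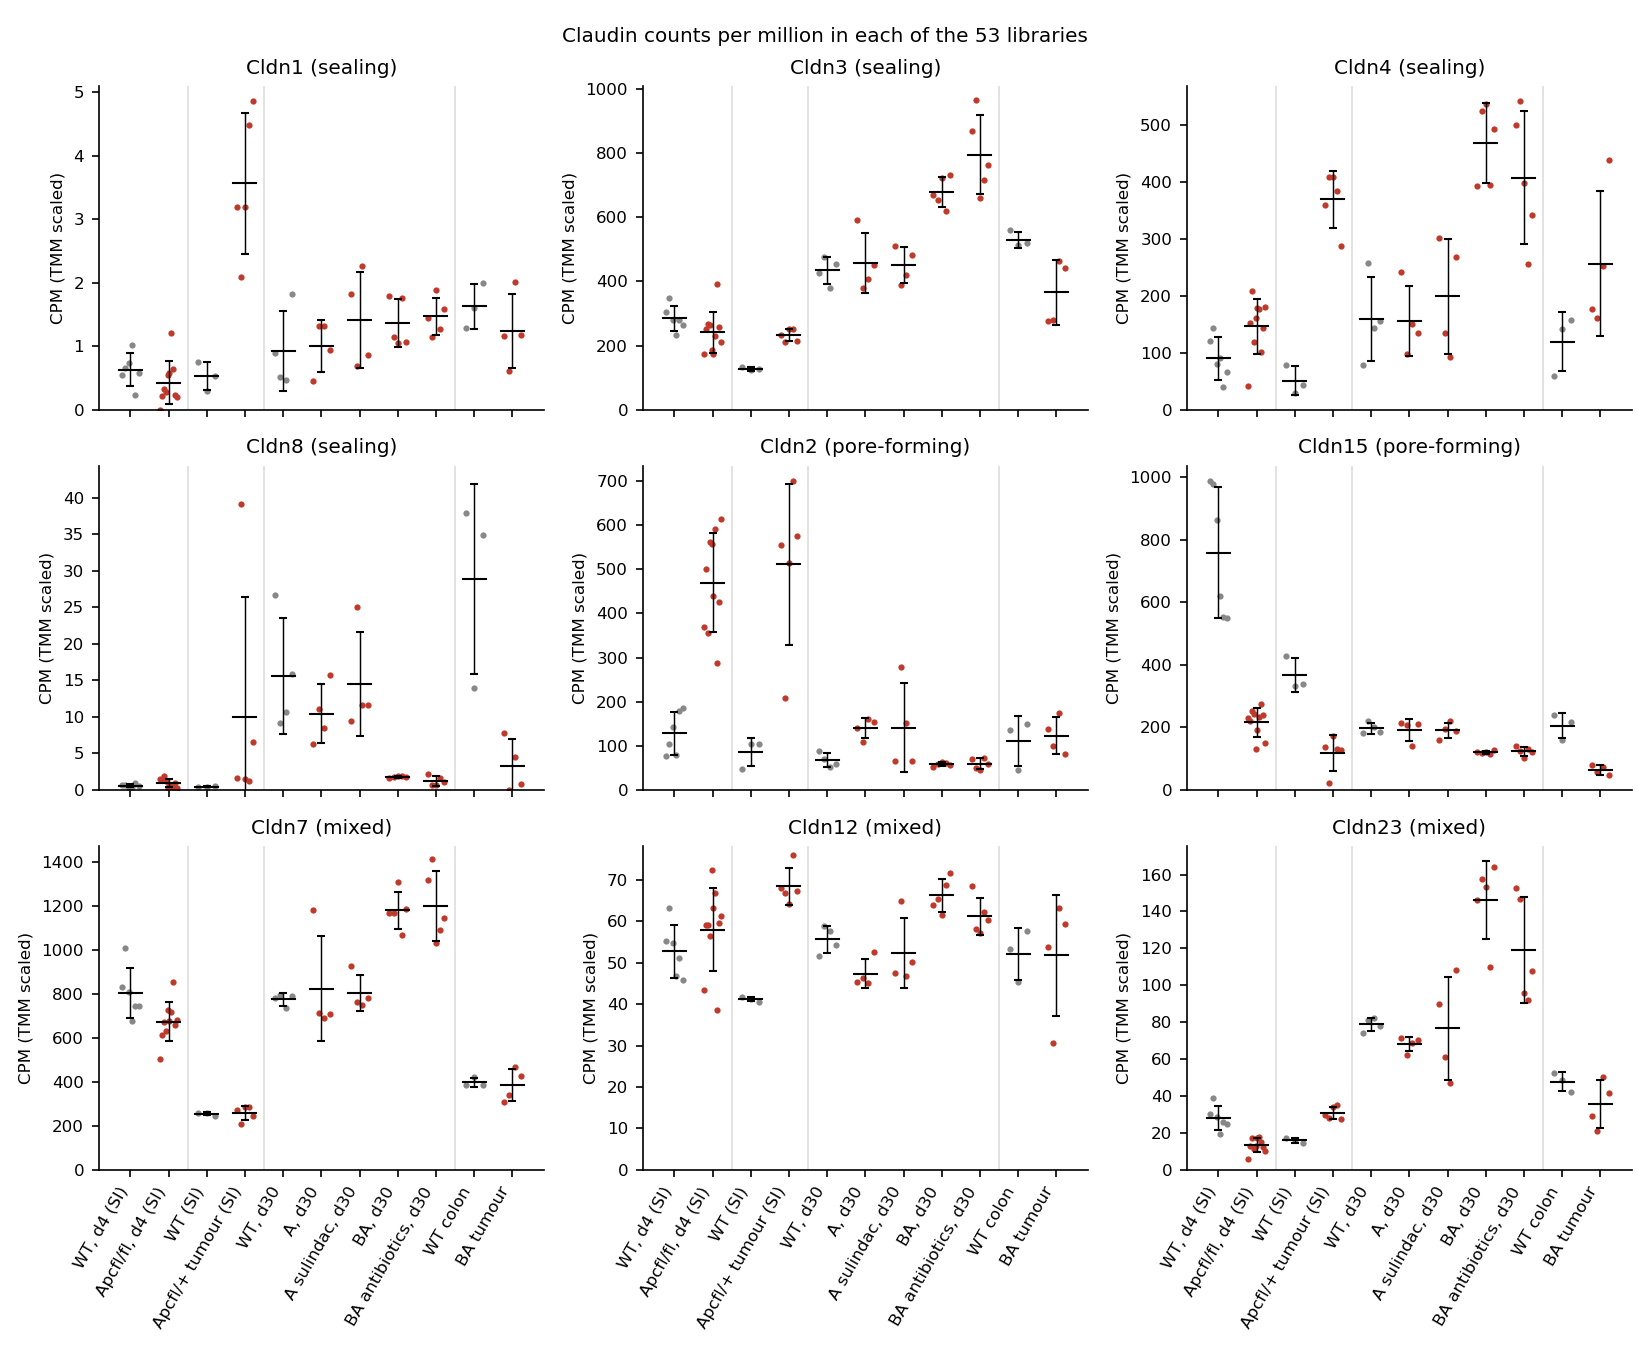
Claudin levels in the 53 libraries, one panel per gene, on a linear axis of CPM after TMM scaling. Points are libraries (grey WT, red others), short lines are group means and bars 1 SD, and grey rules part the 4 sets that share WT libraries. Cldn8 lies between 9.11 and 37.9 CPM in WT colon libraries and between 1.66 and 1.94 CPM in d30 BA libraries, and at d4 Cldn2 is higher and Cldn15 lower in every Apcfl/fl library than in any WT library.

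At d30, BA colon differed from WT in most claudins, with Cldn4 up, Cldn8 and Cldn15 down, and Cldn2 without a call. Of the 9 claudins 5 rose and 2 fell at an adjusted p under 0.05, beside 25.8% of all 17471 genes tested that rose and 29.3% that fell (55.1% in either direction), and the directions of Cldn3, Cldn7, Cldn12 and Cldn23 rested on the scaling given below. The median log2 fold change was 0.60 over the 9 claudins and -0.03 over all genes. For the same 7 claudins the groups did not overlap, as for 45.4% of all genes. In whole tissue, fewer cells that make a claudin and less of its RNA per cell cannot be told apart.

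Cldn8, a sealing claudin of the distal colon, had 26.7, 9.11, 10.7 and 15.9 CPM in WT replicates 1 to 4, whereas BA replicates 1 to 5 had 1.66, 1.75, 1.87, 1.94 and 1.72 CPM. The BA libraries lay close together and far under the lowest WT library. Its log2 fold change was -3.08 (SE 0.29, 95% interval -3.72 to -2.45, adjusted p = 7.56e-06 by edgeR's quasi-likelihood test), a level 0.118 times that of WT.

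Cldn4, a sealing claudin of surface cells, had 79, 257, 144 and 155 CPM in WT replicates 1 to 4, whereas BA replicates 1 to 5 had 394, 525, 538, 395 and 493 CPM. Every BA library was above every WT library, and WT replicate 2 stood highest among the WT mice. The log2 fold change was 1.58 (SE 0.27, adjusted p = 0.000527 by edgeR), or 2.99-fold.

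Cldn15, which makes cation pores, had 181, 222, 200 and 184 CPM in WT replicates and 120, 119, 120, 115 and 129 CPM in BA replicates, again with no overlap. It fell by 0.68 on the log2 scale (SE 0.08, adjusted p = 2.34e-05 by edgeR). Cldn2, the other pore former, had 87.9, 71, 51.3 and 58.8 CPM in WT replicates and 52.4, 57.8, 64.1, 62 and 56.3 CPM in BA replicates. Its groups overlapped, and its log2 fold change of -0.17 had an interval of -0.46 to 0.12 (adjusted p = 0.296 by edgeR).

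Cldn23 had a log2 fold change of 0.92 (SE 0.11), Cldn3 of 0.67 (SE 0.08), Cldn7 of 0.64 (SE 0.07) and Cldn12 of 0.28 (SE 0.07), each called higher with no overlap. Cldn23 was at 74.3 to 82.1 CPM in WT and 110 to 164 CPM in BA mice, and Cldn7 at 734 to 795 CPM in WT and 1069 to 1307 CPM in BA mice. Cldn1 was near the bottom of the range throughout, at 0.474 to 1.82 CPM in WT and 1.06 to 1.79 CPM in BA mice, and was not called (log2 fold change 0.60, adjusted p = 0.204). Without WT replicate 4, its highest WT library, it was called at 1.14 (adjusted p = 0.0129 by edgeR).

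These directions were relative to the whole library, in which epithelial reference genes also differed. Summed over 10 epithelial reference genes (Epcam, keratins, Vil1 and others), CPM ran from 11838 to 14235 in WT and from 23097 to 26699 in BA mice, and 8 of the 10 were called higher. Their log2 fold changes ran from 0.08 to 2.72, and a change of these genes within epithelial cells and a larger share of epithelium cannot be told apart. Summed over 8 smooth muscle markers, CPM ran from 5158 to 5955 in WT and from 970 to 4053 in BA mice, and 6 of the 8 were called lower. When libraries were scaled to the epithelial reference genes in place of TMM, the median of all genes shifted to -0.96. Then 1 claudin was called higher and 6 lower, beside 516 and 15020 of 17471 genes. Cldn4 still rose under that scaling (log2 fold change 0.69, adjusted p = 0.0104 by edgeR) and Cldn8 (-4.04) and Cldn15 still fell. Cldn3, Cldn7, Cldn12 and Cldn23 turned to -0.26, -0.30, -0.65 and -0.02, the last without a call, and Cldn2 was called lower at -1.10.

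In BA mice given antibiotics, Cldn3, Cldn4, Cldn7 and Cldn23 rose against WT and Cldn8 and Cldn15 fell, and Cldn12 was not called (log2 fold change 0.17, adjusted p = 0.0854). These 4 and 2 of 9 claudins stand beside 21.8% and 17.8% of 17569 genes tested (39.6% in all), and 3 and 2 did not overlap between groups, beside 33.4% of all genes. Cldn4 was at 500, 543, 398, 257 and 342 CPM in antibiotic-treated BA mice 1 to 5, a log2 fold change of 1.38 (SE 0.32, adjusted p = 0.00693 by edgeR), and replicate 4 overlapped the highest WT library. Cldn8 was at 2.15, 0.678, 0.665, 1.56 and 1.04 CPM, all under every WT library, with a log2 fold change of -3.64 (SE 0.41, adjusted p = 8.11e-05 by edgeR). Cldn3, Cldn7 and Cldn23 rose by 0.90, 0.66 and 0.62 and Cldn15 fell by 0.65. Under epithelial reference scaling Cldn3 and Cldn4 were no longer called (0.05 and 0.57, adjusted p = 0.593 and 0.071 by edgeR). Cldn7 and Cldn23 turned to -0.19 and -0.24, Cldn12 changed sign as well, and Cldn2 was called lower at -1.00. That scaling called 0 claudins higher and 5 lower, beside 530 and 13336 of 17569 genes. The median of all genes was then -0.82.

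A library of the antibiotic-treated mice stood apart in markers of other cells. Replicate 3 had a summed 7549 CPM of 6 fibroblast markers against 1058 to 1477 in the other treated mice, and 36.9 CPM of 5 neutrophil markers against 1.33 to 1.85. Without it the count against WT was again 4 higher and 2 lower.

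Set directly against BA mice without antibiotics, treated BA mice had 0 of 9 claudins called, beside 13% of 16680 genes tested (4.53% higher, 8.5% lower), and DESeq2 also called 0. Only Cldn3 had an unadjusted p under 0.05, with a log2 fold change of 0.22 (interval 0.004 to 0.43, adjusted p = 0.156), and under epithelial reference scaling it was called at 0.30. Cldn8 had a log2 fold change of -0.56 (interval -1.22 to 0.09) and was called at -0.86 without treated replicate 1. Cldn4 at -0.21 (interval -0.62 to 0.19) and Cldn15 at 0.02 (interval -0.13 to 0.17) had groups that overlapped. Without treated replicate 3 the count was again 0. Fibroblast markers had a median log2 fold change of 1.35 and smooth muscle markers of 0.63 between these groups, with none called, and their part in the claudin values was not tested. These 2 BA groups and the A groups were all compared with the same 4 WT libraries.

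In A mice, with Tgfbr1 deleted in the epithelium and no BrafV600E allele, the highest log2 fold change was that of Cldn2. No claudin was called against WT by edgeR, beside 0.141% of 17713 genes tested (0.096% higher, 0.0452% lower), and 1 of the 9 had an unadjusted p under 0.05. Cldn2 was at 140, 110, 160 and 154 CPM in A mice 1 to 4, all above the 51.3 to 87.9 CPM of WT. Its log2 fold change was 1.09 (SE 0.18, interval 0.69 to 1.50, adjusted p = 0.0638 by edgeR), and it was called by DESeq2, without the low-count filter, without A replicate 2 (1.20) and without WT replicate 1 (1.25). Cldn23 was at 62.5 to 71.2 CPM, under every WT library, with a log2 fold change of -0.18 and no call. Of all genes tested 4.91% did not overlap.

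No claudin was called at d30 in A mice given sulindac. The drug was given for 14 days from the day after tamoxifen, so tissue was taken after it had been stopped. A mice given sulindac had 0 claudins called against WT, beside 0.0507% of 17742 genes, and 0 against A mice without it, beside 0% of 17568 genes, and DESeq2 called 0 in both. Unadjusted p-values were under 0.05 for 1 claudin against WT and for 0 against A. Cldn2 ranged widely in sulindac-treated A mice, at 66.3, 279, 151 and 65.3 CPM, so that it overlapped both WT and A libraries, and no claudin was free of overlap with WT, beside 5.32% of all genes. Its log2 fold change against A was -0.03, with an interval of -0.94 to 0.88.

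BA and A tissue, set against each other, share the deletion of Tgfbr1 and differ in BrafV600E, and they also share the class of Gm13394 reads that parts both from WT. Of the 9 claudins 5 rose and 3 fell in BA relative to A mice, beside 45.3% of 17128 genes tested that were called, 21.7% higher and 23.6% lower. Cldn4 rose by 1.62 (SE 0.24, adjusted p = 0.000292 by edgeR), or 3.07-fold, from 97.5 to 243 CPM in A mice to the 394 to 538 CPM of BA mice. Cldn8 fell by 2.50 (adjusted p = 2.17e-05), from 6.32 to 15.8 CPM in A mice. Both pore formers fell, Cldn2 by 1.23 (SE 0.13, adjusted p = 2.93e-05 by edgeR) and Cldn15 by 0.63 (SE 0.12, adjusted p = 0.00128 by edgeR), and neither group overlapped the other. Cldn23 was at 1.14, Cldn3 at 0.61, Cldn7 at 0.56 and Cldn12 at 0.53 on the log2 scale, all called. Epithelial reference scaling ended these 4 calls, with values of 0.30, -0.20, -0.23 and -0.32. It left 1 claudin called higher and 3 lower, beside 492 and 13116 of 17128 genes. Cldn7 overlapped between the groups and lost its call without A replicate 2 (0.52, adjusted p = 0.0505) or A replicate 4 (0.51, adjusted p = 0.0518). The epithelial reference sum ran from 12334 to 19130 CPM in A mice, under every BA library.

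**Figure D2:**
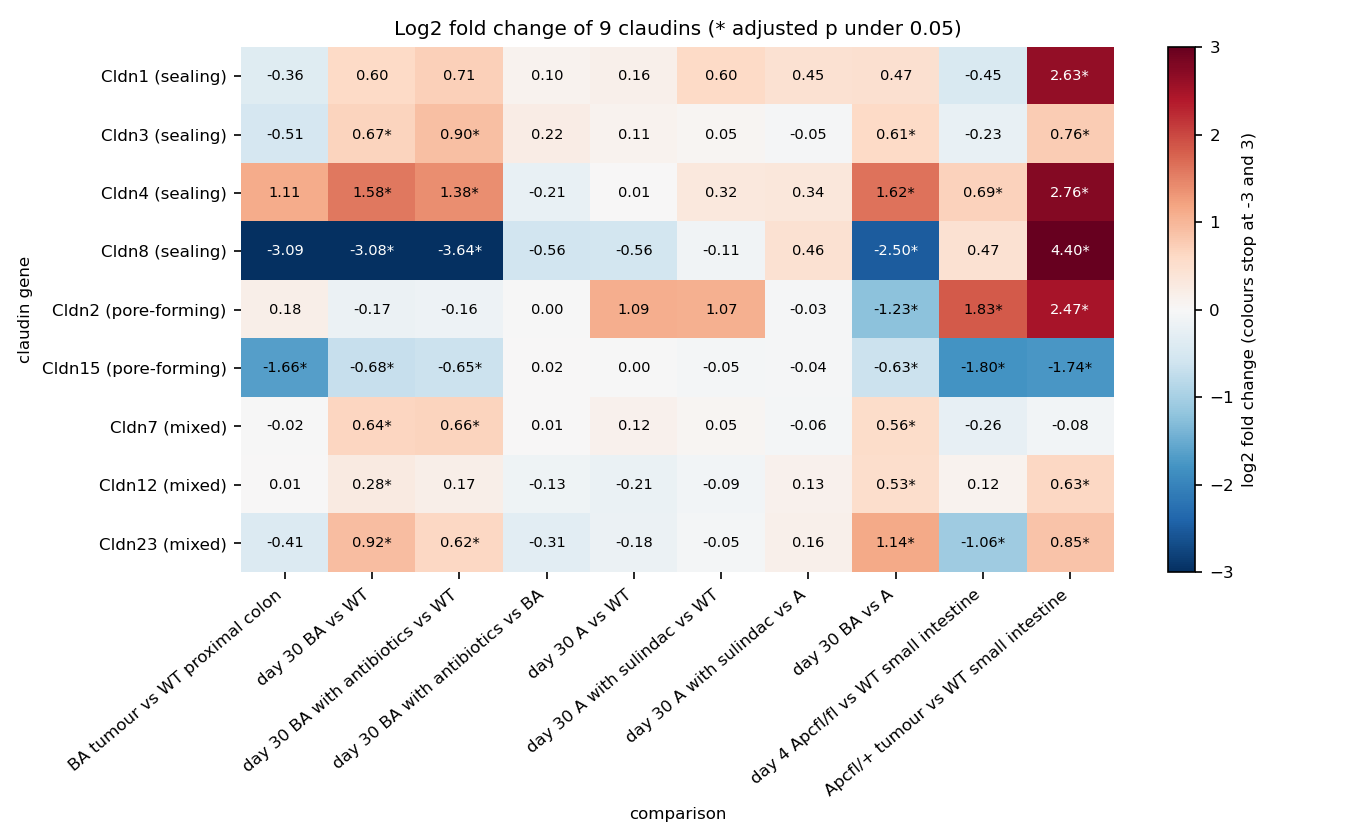
Log2 fold change of each claudin (rows, ordered as sealing, pore-forming and mixed role) in each of 10 comparisons (columns), with red higher, blue lower, colours ending at -3 and 3, and an asterisk for an adjusted p under 0.05. Cldn4 is 1.58 and Cldn8 -3.08 in d30 BA tissue, Cldn15 is lower in all 3 of the BA tumour, d4 and Apcfl/+ columns, and at d30 the signs of Cldn3, Cldn7, Cldn12 and Cldn23 against WT in BA tissue flip under epithelial reference scaling.

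**Figure D3:**
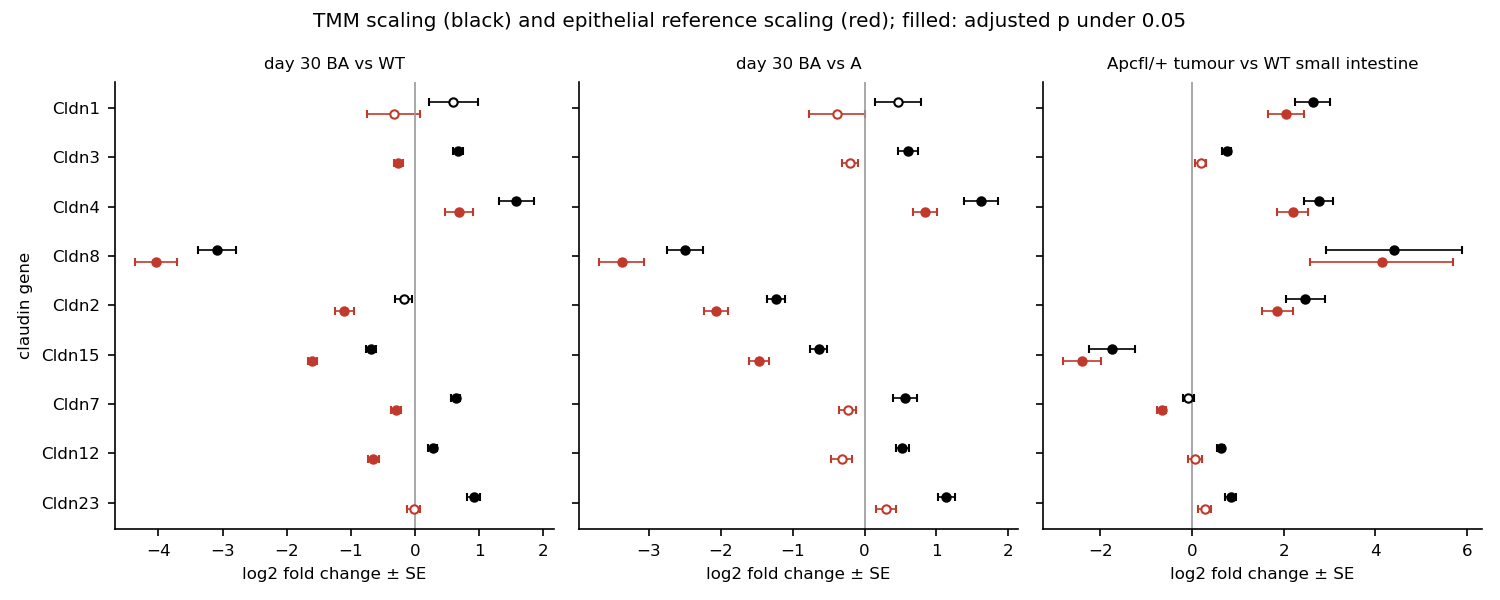
Log2 fold changes ± SE of the 9 claudins under TMM scaling (black) and epithelial reference scaling (red) in 3 comparisons, with filled points for an adjusted p under 0.05. In d30 BA against WT, Cldn4 stays above 0 (1.58 and 0.69), Cldn8 and Cldn15 stay under 0, and Cldn3, Cldn7, Cldn12 and Cldn23 cross 0.

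In endpoint BA tumours Cldn15 was the claudin that passed the test, and it was lower. It was at 239, 160 and 218 CPM in WT proximal colon 1 to 3 and at 79.2, 55.6, 74.3 and 46.2 CPM in tumours 1 to 4, well under the lowest WT library. Its log2 fold change was -1.66 (SE 0.24, interval -2.21 to -1.12, adjusted p = 0.00403 by edgeR), a level 0.316 times that of WT. This was 1 of 9 claudins called, beside 13.2% of 19188 genes tested (7.46% higher, 5.71% lower). With a term for Y-linked reads it was -1.39 and not called (adjusted p = 0.12), a fit in which 168 of all genes were called in place of 2527.

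Cldn8, Cldn4 and Cldn3 did not overlap between tumours and WT either, as was so for 26.9% of all genes, but were not called. Cldn8 was at 37.9, 13.9 and 34.8 CPM in WT colon and at 7.83, 0, 4.54 and 0.772 CPM in tumours, where 3 counts at the median total of the tumours correspond to 0.16 CPM. Its log2 fold change of -3.09 (SE 0.94, adjusted p = 0.0621) was called without tumour 1 (-3.94, adjusted p = 0.0383 by edgeR), without tumour 2 (-2.72, adjusted p = 0.0291), without the low-count filter and with a term for Gm13394 reads. The tumours differed from each other by more than the d30 BA mice did.

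Cldn4 was at 60.3, 142 and 159 CPM in WT colon and at 177, 161, 253 and 438 CPM in tumours, a log2 fold change of 1.11 (SE 0.44, adjusted p = 0.135 by edgeR), and was called only without the low-count filter. Cldn3 was at 512 to 558 CPM in WT and 278 to 463 CPM in tumours (log2 fold change -0.51, adjusted p = 0.264). Cldn2 had a log2 fold change of 0.18 (interval -0.74 to 1.11), Cldn7 of -0.02 (interval -0.58 to 0.54) and Cldn12 of 0.01 (interval -0.54 to 0.55), all with overlapping groups. Tumours also differed in markers of other cells. The summed CPM of 6 fibroblast markers ran from 4224 to 5326 against 1546 to 2409 in WT, with 2 of the 6 called higher. That of 5 neutrophil markers ran from 18.5 to 79.3 against 2.54 to 5.06, with 5 called higher. Of the endothelial and leukocyte markers 4 of 5 and 3 of 5 were called higher. Smooth muscle markers went the other way, with 3 of 8 called lower and a sum of 1573 to 3335 against 2188 to 8761 CPM. The epithelial reference sum ran from 10365 to 16968 CPM in tumours and 14133 to 16734 in WT. The part of these cells in the claudin values was not tested.

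At d4 after loss of Apc, Cldn2 rose and Cldn15 fell in the small intestine. Cldn2 had a lowest, median and highest level of 77.2, 123 and 187 CPM in WT mice (n = 6) and of 287, 469 and 615 CPM in Apcfl/fl mice (n = 10). Cldn15 had 549, 741 and 987 CPM in WT and 131, 231 and 274 CPM in Apcfl/fl mice. Neither gene overlapped between the groups, as was so for 15.8% of all genes. Cldn2 rose by 1.83 (SE 0.22, adjusted p = 6.09e-06 by edgeR), or 3.56-fold, and Cldn15 fell by 1.80 (SE 0.19, adjusted p = 1.49e-06), to 0.288 times its WT level. Per kb, Cldn2 at 141 and Cldn15 at 102 CPM per kb overlapped in Apcfl/fl mice.

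Of the 9 claudins 2 rose and 2 fell, beside 27.5% and 26.7% of 17536 genes tested (54.2% in all). The other calls were Cldn23, which fell by 1.06 (SE 0.16, adjusted p = 4.53e-05 by edgeR) from 19.2 to 39 CPM in WT to 6.00 to 17.9 CPM with no overlap, and Cldn4. Cldn4 rose by 0.69 (SE 0.25, adjusted p = 0.0273 by edgeR), with 40.6 to 144 CPM in WT and 42.0 to 209 CPM in Apcfl/fl mice overlapping widely, and the call was lost with a term for Y-linked reads (0.62, adjusted p = 0.0524), and without WT replicate 3 (0.65), 5 (0.54) or 6 (0.63). Cldn3 and Cldn7 were not called (-0.23 and -0.26), but were without Apcfl/fl replicate 8 (-0.38 and -0.33), the highest library for both. Markers of other cells moved too, with 5 of 5 endothelial and 4 of 5 leukocyte markers called lower and 2 of 10 epithelial reference genes called in each direction.

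Both the over-10-CPM and the other class of Gm13394 reads held Apcfl/fl and WT mice at d4, so the comparison could be made within each. Cldn2 was at 1.58 among libraries over the limit and 2.14 among those under it, and Cldn15 at -1.59 and -1.90, called in both. Cldn23 was called in both as well, at -0.82 and -1.25. Cldn4 was called only over the limit (1.13 against 0.35), while Cldn8 (1.42) and Cldn7 (-0.44) were called only under it. Calls were 4 of 9 claudins over the limit, beside 5490 of 18055 genes, and 5 of 8 tested under it, beside 10201 of 17208. The class under the limit held Apcfl/fl replicates 1 to 4, among them the library with 516985 reads, and WT replicates 1 to 3. Over all d4 libraries Cldn8 was low, at 0.25 to 1.89 CPM in Apcfl/fl and 0.32 to 0.95 CPM in WT mice. Whether these within-class values differ from each other was not tested.

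Apcfl/+ tumours of the small intestine had 8 of 9 claudins called against WT, beside 61.5% of 20567 genes tested. Of these 7 rose, beside 31.4% of all genes called higher, and Cldn15 fell. The same 8 did not overlap between groups, as was so for 60.3% of all genes. The median log2 fold change was 0.85 over the claudins and 0.03 over all genes, and the 4 sealing claudins all rose, with a median of 2.70. The class of Gm13394 reads and the genotype cannot be told apart in this comparison.

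Cldn4 was at 79.5, 30 and 43.8 CPM in WT small intestine and at 359, 409, 408, 385 and 289 CPM in tumours 1 to 5. Every tumour was far above every WT library, with a log2 fold change of 2.76 (SE 0.31, adjusted p = 0.000159 by edgeR), or 6.78-fold. Cldn1, which in WT lay at 0.304 to 0.754 CPM, was at 3.2, 2.09, 3.2, 4.49 and 4.86 CPM in tumours, a rise of 2.63 (SE 0.38, adjusted p = 0.00054 by edgeR). Per kb its mean in tumours was still far under that of the other sealing claudins Cldn3 and Cldn4.

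Cldn2 was at 48, 103 and 104 CPM in WT and at 554, 208, 515, 701 and 576 CPM in tumours, with tumour 2 lowest and no overlap. It rose by 2.47 (SE 0.43, adjusted p = 0.00127 by edgeR), or 5.55-fold. Cldn15 was at 429, 331 and 340 CPM in WT and at 137, 21.9, 173, 131 and 127 CPM in tumours, again with tumour 2 lowest. It fell by 1.74 (SE 0.49, adjusted p = 0.0138 by edgeR), and with a term for Y-linked reads it was -1.54 and not called (adjusted p = 0.219).

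Tumour 2 also set the size of the change in Cldn8, which was at 1.6, 39.1, 1.53, 1.18 and 6.52 CPM in tumours and at 0.377, 0.456 and 0.488 CPM in WT. All tumours were above WT, but the log2 fold change of 4.40 (SE 1.49, adjusted p = 0.0292 by edgeR) was 2.54 without tumour 2, still called. The call was lost with a term for Y-linked reads (1.73, adjusted p = 0.482) and without WT replicate 1 (4.30), 2 (4.44) or 3 (4.49).

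Cldn3, Cldn12 and Cldn23 rose by 0.76, 0.63 and 0.85, with no overlap. Cldn7 was at 247 to 260 CPM in WT and 210 to 284 CPM in tumours, with a log2 fold change of -0.08 (interval -0.35 to 0.19). The epithelial reference sum ran from 6771 to 7959 CPM in WT and 7170 to 13172 in tumours, and under epithelial reference scaling the median of all genes shifted to -0.53, the calls of Cldn3 (0.19), Cldn12 (0.07) and Cldn23 (0.28) were lost and Cldn7 was called lower (-0.66). Cldn1, Cldn2, Cldn4, Cldn8 and Cldn15 kept direction and call under it. Markers of other cells differed as well, with 5 of 6 fibroblast, 4 of 5 endothelial and 4 of 5 neutrophil markers called higher and 4 of 8 smooth muscle and 3 of 5 leukocyte markers lower. The fibroblast sum ran from 2931 to 3630 CPM in tumours and 1037 to 1341 in WT, and the part of these cells in the claudin values was not tested.

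The effects were then tested against each other where the comparisons shared no library. Against their own WT, BA tumours differed from Apcfl/+ tumours in 6 of 9 claudins, all with the lower effect in BA tumours, beside 17.7% of 21668 genes with a lower effect (39.7% called in all). The difference of log2 fold changes was -7.44 for Cldn8 (SE 1.90, adjusted p = 0.00803 by edgeR), from -3.09 in BA and 4.40 in Apcfl/+ tumours, and -5.70 without Apcfl/+ tumour 2. It was -2.95 for Cldn1 (adjusted p = 0.0016) and -2.25 for Cldn2 (adjusted p = 0.0112). Cldn4, Cldn3 and Cldn23 differed by -1.62, -1.25 and -1.23. Cldn4 lost the call without WT colon replicate 3 (-1.40) or without WT small intestine replicate 2 (-1.45) or 3 (-1.54). Under epithelial reference scaling Cldn4 and Cldn23 lost it (-1.11 and -0.71), and Cldn7 was called with a higher effect in BA tumours (0.63). That gave 4 claudins lower and 1 higher in all, beside 1245 and 6745 of 21668 genes. Cldn15 fell in both tumour types, and its difference of 0.12 had an interval of -1.18 to 1.42. Tissue, strain label and genotype cannot be told apart here. Ddx3y and Gm13394 reads over 10 CPM were each in most BA tumours and in none of their WT libraries. Both were in all WT libraries of the Apcfl/+ tumours, and in few or none of those tumours. No difference between effects was fitted with a term for these reads.

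BA tumours and d30 BA tissue, each against its own WT, differed in 4 of 9 claudins, beside 6.46% of 20637 genes with a lower effect in tumours and 9.87% with a higher one (16.3% in all). Cldn23 differed by -1.33 (adjusted p = 0.00386 by edgeR), Cldn3 by -1.20 (adjusted p = 0.00233), Cldn15 by -0.98 (adjusted p = 0.00946) and Cldn7 by -0.67 (adjusted p = 0.0269). Under epithelial reference scaling all 4 calls were lost, with Cldn7 turned to 0.27 and Cldn15 at -0.01, while Cldn2 and Cldn12 were called at 1.33 and 0.67. Over all 20637 genes, that scaling called 10712 higher and 107 lower, with a median difference of 0.97. The call of Cldn7 was lost without any 1 of 8 libraries, with values from -0.70 to -0.53: WT colon replicates 2 and 3, d30 BA replicates 1, 3 and 5, and WT d30 replicates 1, 3 and 4. Cldn8 had nearly the same effect in both, with a difference of 0.05 and a wide interval of -1.88 to 1.97.

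Apcfl/+ tumours and d4 Apcfl/fl tissue differed in 6 of 9 claudins, all with the higher effect in tumours, beside 12.4% of 22202 genes with a higher effect and 12.3% with a lower one (24.7% in all). The differences were 3.03 for Cldn1 (adjusted p = 0.00119 by edgeR), 2.05 for Cldn4 (adjusted p = 0.00249), 1.88 for Cldn23 (adjusted p = 5.41e-05) and 0.98 for Cldn3, which was lost under epithelial reference scaling (0.43). Cldn8 differed by 3.90 and Cldn12 by 0.48, which turned to -0.07 under epithelial reference scaling. That scaling left 4 claudins higher and 0 lower, beside 927 and 6439 of 22202 genes, with a median difference of -0.55. The call of Cldn8 was lost without Apcfl/+ tumour 2 (2.01) or any of the 3 WT libraries of the tumours (3.79 to 3.98), and that of Cldn12 without Apcfl/+ tumour 4 or 5, any of those 3 WT libraries or WT d4 replicate 2 (0.38 to 0.50). For the pore formers no difference was called, with 0.60 for Cldn2 (interval -0.27 to 1.46) and 0.05 for Cldn15 (interval -0.90 to 1.01). Strain label, Apc genotype and tumour against d4 tissue cannot be told apart here.

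The balance of the claudins can be read within each library as a share, which no library scaling touches. Of the summed CPM per kb, the pore-forming pair made up 10.3% to 11.8% in WT d30 libraries and 4.41% to 5.16% in d30 BA libraries, with 3.73% to 5.82% under antibiotics and 10.2% to 14.5% in A mice. In WT proximal colon it was 10.6% to 17.3% and in BA tumours 5.18% to 13.4%, which overlapped. In small intestine it was 20.7% to 33.6% in Apcfl/fl mice and 32.4% to 38.9% in WT. These overlapped through Apcfl/fl replicate 1 alone, the library with 516985 reads (the next was 31.3%). Apcfl/+ tumours had 11.7% to 32.3% and their WT 41.3% to 41.7%, with no overlap, and the low end was tumour 2 alone (the next was 28.1%). These are shares of RNA and not of protein in the junction.

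Within the pore-forming pair, Cldn2 made up 10.5% ± 5.64 (SD, n = 6) in WT d4 small intestine and 57.7% ± 10.4 (SD, n = 10) in Apcfl/fl mice. The libraries did not overlap, at 4.76% to 17.8% and 40.1% to 73.1%, and in Apcfl/fl replicates 3 and 8 (47.4% and 40.1%) Cldn15 was still the higher of the pair. It was 13.2% ± 5.69 (SD, n = 3) in the other WT small intestine and 75.1% ± 7.45 (SD, n = 5) in Apcfl/+ tumours. In the colon it was 24.1% ± 8.06 (SD, n = 3) in WT and 54.7% ± 3.57 (SD, n = 4) in BA tumours, where Cldn15 was lower and Cldn2 was not called. At d30 it was 17.9% ± 4.08 (SD, n = 4) in WT, 23.7% ± 1.89 (SD, n = 5) in BA and 32.2% ± 7.14 (SD, n = 4) in A mice.

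**Figure D4:**
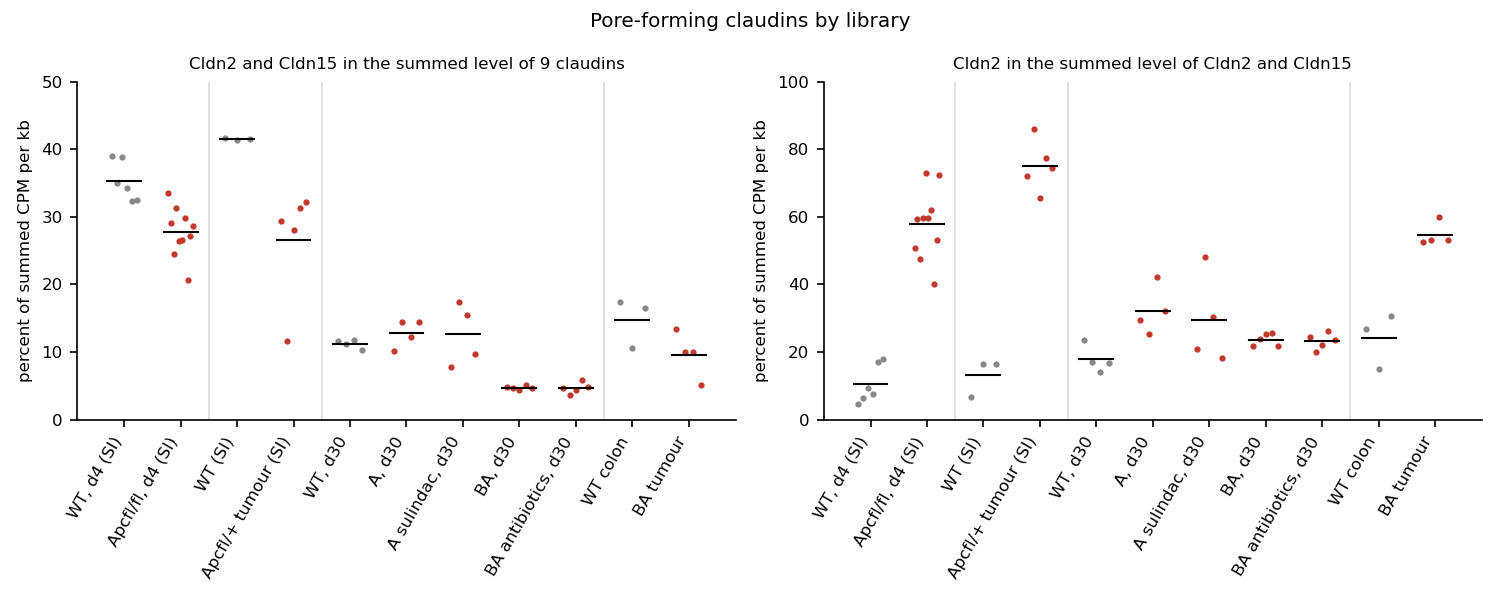
Share of Cldn2 and Cldn15 in the summed CPM per kb of the 9 claudins (left, axis to 50%) and share of Cldn2 in the summed level of Cldn2 and Cldn15 (right, axis to 100%), for each library. Points are libraries (grey WT, red others) and lines are group means. The mean in the left panel is 11.2% in WT and 4.74% in BA colon at d30, and in the right panel the tumour and Apcfl/fl libraries, at 40.1% or more, lie above every library of their WT groups.

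The partners of claudins in the junction were read from a list of 22 genes. In d30 BA tissue 20 were called higher than in WT and 0 lower, beside 25.8% and 29.3% of all genes, with a median log2 fold change of 0.70 (-0.03 over all genes). Under epithelial reference scaling 1 was higher and 11 lower with a median of -0.23. Over all 17471 genes, that scaling called 516 higher and 15020 lower, with a median of -0.96. Pard6b, a polarity protein, had the highest value under TMM scaling, 1.35 (SE 0.10), and was the one still called higher under the other (0.41). Tjp1, the scaffold ZO-1, was at 1.16, Patj at 1.08 and Cxadr, an adhesion receptor, at 1.06, and Prkci, the atypical protein kinase of the polarity complex, was lowest at -0.10 with no call. Against A mice 21 were called higher in BA tissue and 0 lower, beside 21.7% and 23.6% of all genes, with Pard6b at 1.66 and Tjp3 lowest at 0.30. There epithelial reference scaling left 2 higher and 7 lower, beside 492 and 13116 of 17128 genes. With antibiotics 16 were higher and 1 lower against WT, beside 21.8% and 17.8% of all genes. Under that scaling 2 were higher and 10 lower, beside 530 and 13336 of 17569 genes. A mice had 0 of the 22 called, with or without sulindac, and under either scaling.

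In BA tumours 2 of the 22 partners were called higher and 0 lower under each scaling tried, beside 7.46% and 5.71% of all genes, Cgnl1 (paracingulin, a cytoplasmic plaque protein) at 1.44 and Pard6b at 1.03, with Tjp3 lowest at -0.35. At d4 in Apcfl/fl tissue 4 were higher and 5 lower, beside 27.5% and 26.7% of all genes, with Prkci at 1.19, Ildr1 at 0.90 and Cgnl1 at 0.78 among the former and Cgn (cingulin) at -0.66 and Marveld3 at -0.63 among the latter. In Apcfl/+ tumours 11 were higher and 4 lower, beside 6461 and 6189 of 20567 genes. That made 15 of 22 called, near the 61.5% of all genes. Under epithelial reference scaling 3 were higher and 7 lower, beside 2101 and 9492 of all genes. Cgnl1 at 3.49 and Ildr1, a protein of tricellular contacts, at 2.96 led there and were called under both scalings (2.97 and 2.57). Ctnnb1, the gene of β-catenin, was at 1.08, Cgn at -0.40 and Pals1 lowest at -0.55. Cgnl1 was thus called higher in tumours of both kinds and at d4, although the sizes were not tested against each other.

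**Figure D5:**
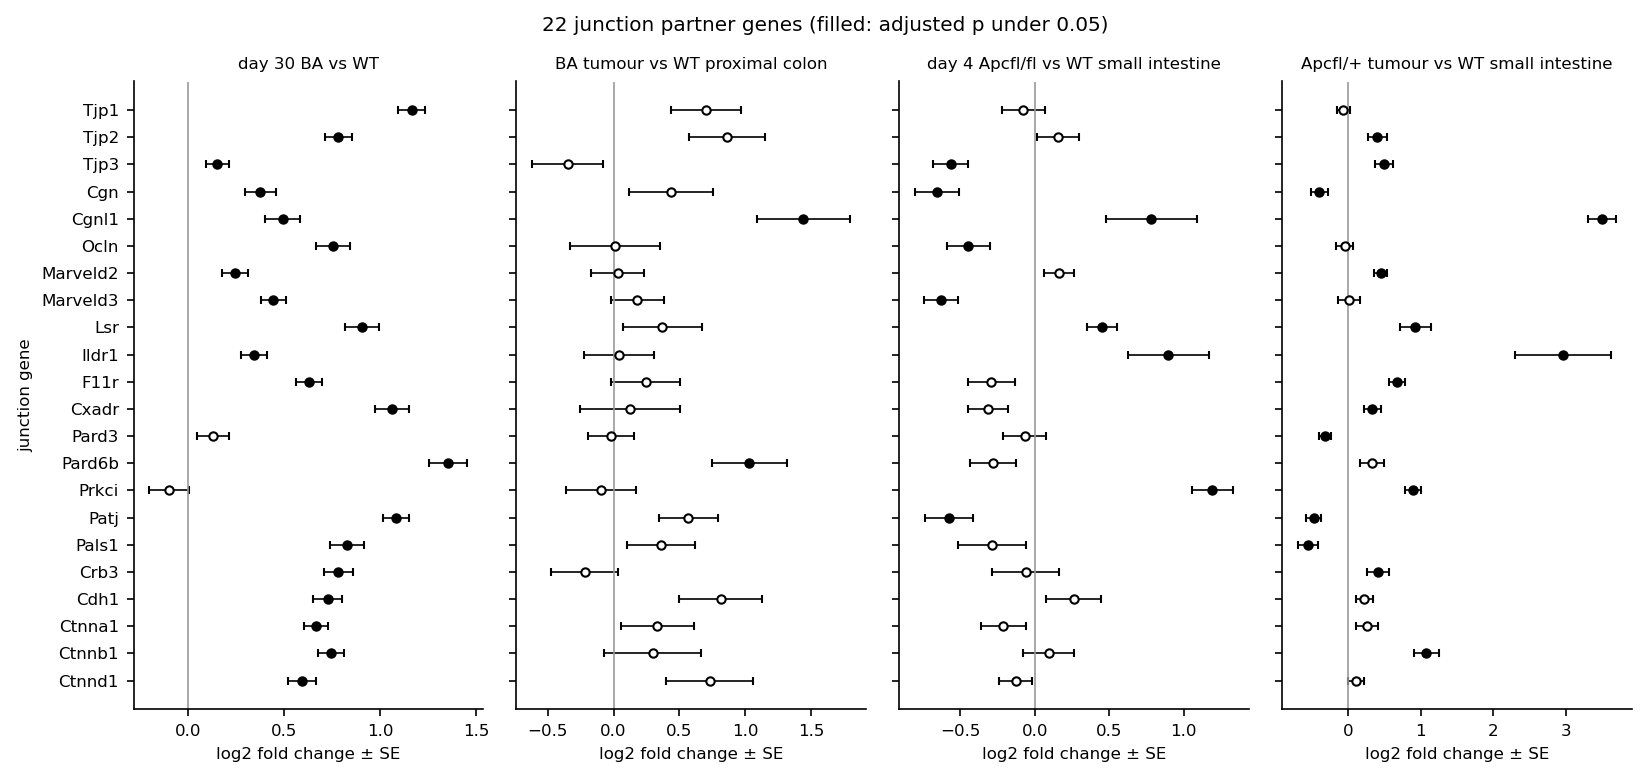
Log2 fold changes ± SE (TMM scaling) of the 22 junction partners in 4 comparisons, each panel with its own range on the horizontal axis and filled points for an adjusted p under 0.05. Most points lie to the right of 0 in d30 BA tissue (20 called higher). Under epithelial reference scaling 1 is higher and 11 lower there, beside 516 and 15020 of 17471 genes. Cgnl1 is filled and right of 0 in all 4 panels, where epithelial reference scaling turns it to -0.44 in d30 BA tissue.

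Of 25 other claudin genes in the table, Cldn5, Cldn6, Cldn9, Cldn10 and Cldn18 had enough reads to be tested in at least 1 comparison, and Cldn9 and Cldn10 were called in none. Cldn5, a claudin of blood vessel walls, fell in d30 BA tissue by 1.28 against WT (adjusted p = 0.000132 by edgeR) and by 1.12 against A mice, and by 1.57 at d4 in Apcfl/fl mice. Cldn18, known from stomach, was at 0 to 0.132 CPM in WT and 0 to 6.30 CPM in Apcfl/fl mice at d4, with a median of 0.685 CPM. In Apcfl/+ tumours it was at 0.190 to 10.6 CPM with a median of 4.61, and the 3 WT libraries held 3 reads of it together. It was called higher in both (adjusted p = 0.00232 and 0.00436 by edgeR). Cldn6, known from early embryos, rose by 2.11 at d4 and by 3.44 in Apcfl/+ tumours, to a median of 0.792 and 0.856 CPM, levels far under those of the main claudins.

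Over the 7 comparisons with WT, Cldn8 moved most of the sealing claudins, with a root mean square log2 fold change of 2.73, and Cldn2 most of the pore formers at 1.30. The genes whose 7 log2 fold changes lay nearest to those of Cldn8 among 15479 genes tested in all were Mal, Rdh1 and Scml2, at root mean square differences of 0.79, 0.81 and 0.83. Mal, a proteolipid of apical sorting, had -3.45 in d30 BA tissue and 4.83 in Apcfl/+ tumours. Nearest to Cldn2 were Ptpro, Ifitm3 and Sidt1, at 0.34, 0.36 and 0.39. Ptpro, a receptor-type phosphatase, had 2.22 at d4 in Apcfl/fl mice and 3.22 in Apcfl/+ tumours. Of the 7 comparisons 4 share the WT d30 libraries, so these values are a description.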

How the data were processed

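RNA of whole tissue was sequenced from 53 mice in 11 groups, taken as given in the labels. Per the labels, libraries were made with the TruSeq RNA kit v2 and read as pairs, and the authors trimmed reads with Trim Galore 0.6.4 after FastQC 0.11.8, aligned them to GRCm38 with HISAT2 2.1.0, counted them on genes with featureCounts 1.6.4 and deposited raw counts with no normalisation. The strand setting of the counting, and how reads with several matches were treated, are not given in the sources used here, and a sequencing batch is not given per library. Symbols, positions and exon lengths came from GENCODE for 55154 of 55421 genes. Nothing says that replicates of a group were other than separate mice, and no 2 libraries agreed within sampling noise.

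From the counts, each comparison was fitted alone with the two-sided quasi-likelihood test of edgeR 4.0.16 in R 4.3.3 after filterByExpr and TMM scaling, with Benjamini-Hochberg adjustment over all genes tested and a threshold of 0.05. Differences between effects were tested with an interaction term. A floor is 3 counts at a group's median total and covers counting error only. CPM levels use 1 TMM scaling over all libraries. Alternatives were RLE scaling, DESeq2 1.42.0, no low-count filter, scaling to 10 epithelial reference genes, the replicate number as a block, all d30 groups in 1 fit, terms for Ddx3y and Gm13394 reads over 10 CPM, and each library left out. Fits within the Gm13394 classes were chosen after seeing the data. Scripts were checked on simulated counts with known changes. Promoters came from RefSeq. The claudins and gene lists were chosen with earlier results of these data known, and the text names the 9 claudins, the targeted genes, up to 5 junction partners and 3 other claudins per comparison, and the nearest genes of the 2 claudins that moved most.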

Additional observations from a re-analysis of the deposited data

Results flagged for a closer look

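In 81 group-by-gene sets of 4 to 10 libraries, 6 held a library far from the rest of its group by Dixon's criterion, where chance gives about 1 in 20. Cldn8 was at 39.1 CPM in Apcfl/+ tumour 2 with the next library at 6.52, and at 25.0 CPM in sulindac-treated A mouse 2 with the next at 11.7. A mice held 3 of the 6, with Cldn7 at 1184 CPM in replicate 1 (next 712), Cldn15 at 140 CPM in replicate 3 (next 206) and Cldn12 at 52.5 CPM in replicate 4 (next 46.3). Cldn3 was at 391 CPM in Apcfl/fl mouse 8 (next 267).

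A difference between effects, tested with an interaction term in edgeR, was called for 16 claudin values in 3 pairs of comparisons. BA tumours minus Apcfl/+ tumours gave -2.95 for Cldn1, -1.25 for Cldn3, -1.62 for Cldn4, -7.44 for Cldn8, -2.25 for Cldn2 and -1.23 for Cldn23. BA tumours minus d30 BA tissue gave -1.20 for Cldn3, -0.98 for Cldn15, -0.67 for Cldn7 and -1.33 for Cldn23. Apcfl/+ tumours minus d4 Apcfl/fl tissue gave 3.03 for Cldn1, 0.98 for Cldn3, 2.05 for Cldn4, 3.90 for Cldn8, 0.48 for Cldn12 and 1.88 for Cldn23.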

How the results depend on the processing

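Of 2027 values of single claudins under an alternative, 1927 stayed on their side of the threshold with 97 uncalled changes of sign among them. A further 56 lost a call, 31 gained one and 13 turned, all 13 under epithelial reference scaling. A value that turned changed sign and was called in the main fit, in the alternative or in both. RLE scaling ended 1 call and DESeq2 ended none and added 3. The 13 were, in d30 BA against WT, Cldn3 (-0.26), Cldn7 (-0.30), Cldn12 (-0.65) and Cldn23 (-0.020), with antibiotics Cldn7 (-0.19), Cldn12 (-0.67) and Cldn23 (-0.24), in BA against A Cldn3 (-0.20), Cldn7 (-0.23) and Cldn12 (-0.32), in BA tumours minus d30 BA tissue Cldn7 (0.27) and Cldn12 (0.67), and in Apcfl/+ tumours minus d4 Apcfl/fl tissue Cldn12 (-0.065). That scaling assumes that these reference genes do not change within epithelial cells. It also left 4 called claudins in place of 8 in BA against A, 2 in place of 4 in BA tumours minus d30 BA tissue, and 1 in place of 0 in antibiotic-treated against untreated BA mice. Over all genes these fits called 13608 of 17128, 10819 of 20637 and 1141 of 16680. The count in BA tumours, 1 by the test used, was 3 without the low-count filter, 0 with a term for Y-linked reads, 2 with a term for Gm13394 reads and 1 to 2 with each library left out. In A mice it was 0, and 1 by DESeq2 or without the filter, and 0 to 1 with each library left out, as for antibiotics against no antibiotics. Leaving out libraries gave 7 to 8 calls in d30 BA tissue, 3 to 6 at d4 and 7 to 8 in Apcfl/+ tumours. Neither those 2 read terms in the d30 fits nor the Gm13394 term in Apcfl/+ tumours could be fitted, the classes being single or the same as the groups.

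Over all genes, the called total of 2527 in BA tumours was 3798 by DESeq2, 931 with a block, 168 with the Y-linked term and 696 to 3641 with a library left out, and the 12650 of Apcfl/+ tumours was 8333 with a block and 7030 with the Y-linked term. Epithelial reference scaling called 15536 in d30 BA tissue (9634 under TMM scaling), 13866 with antibiotics (6966) and 13608 in BA against A (7761).

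Equal replicate numbers did not pair the libraries in any of the 10 comparisons (correlations of deviations from -0.48 to 0.30). With the number as a block, claudin calls were 1 in BA tumours, 7 in d30 BA tissue, 6 with antibiotics, 0 in A mice, 8 in BA against A, 5 at d4 (1 higher and 4 lower, where Cldn4 lost its call at 0.71 and Cldn3 and Cldn7 gained one at -0.40 and -0.34), 7 in Apcfl/+ tumours and 4, 3 and 4 for the differences between effects.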
